A study of Homo sapiens with 24 samples.

Results

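HCT116 and HCT15 are human colorectal cancer cell lines, and the comparison described here sets HCT116 against parental HCT15. Its members were taken from the sample labels: 8 of the 24 libraries of the series, 2 of input RNA (INPUT) and 2 of ribosome-protected fragments (RPF) from each line. Both lines are labelled as wild-type colon cancer cells, with no edit or vector. HCT116 was grown in RPMI-1640 and HCT15 in DMEM, each with 10% fetal bovine serum, so line and medium cannot be told apart. All cultures received cycloheximide, which stalls elongating ribosomes, at 100 µg/mL for 10 minutes before lysis. The other 16 libraries come from SW620, from the colon epithelial cells 841CON and from HCT15 carrying a vector (PLVX) or overexpressing COPS7B. They enter the test through its estimate of spread, its filter and its scaling. The study asks how translational efficiency in the cancer lines differs from that in 841CON, and its title places COPS7B, a subunit of the COP9 signalosome, with the RNA-binding protein IGF2BP3. A direct contrast of HCT116 with HCT15 is not part of that stated question.

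In ribosome profiling, nuclease digests the mRNA that ribosomes do not cover, and the protected footprints are sequenced. A gene's footprint level depends on how much mRNA is present and on how many ribosomes each mRNA carries. Translational efficiency (TE), the footprint level divided by the RNA level, separates the second from the first. Both lines derive from colorectal carcinomas and are known to be deficient in DNA mismatch repair, so each carries many mutations. The deposited tables identify genes by Ensembl ID and do not pair the IDs with names, and no table used here made that link. Genes are therefore called IDs below, a few are given by identifier, and no function is assigned to any of them. For the same reason markers of colon epithelium or of other cell types could not be looked up, and the line labels were not checked in that way.

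Among the 20426 IDs listed for both assays, the HCT116 INPUT libraries held 1660544 and 2283402 counts, against 4309463 and 1951142 in HCT15. The HCT116 RPF libraries held 997844 and 1012751 counts, against 1473562 and 4679279 in HCT15. The 2 HCT116 libraries of an assay were close to each other. Their counts varied 1.39 times as much as counting error alone for INPUT and 1.69 times for RPF, by a chi-square statistic per degree of freedom. In HCT15 the same ratios were 31.6 and 32.4. The median absolute log2 difference between replicates was 0.17 for HCT116 INPUT and 0.19 for HCT116 RPF, against 0.63 for HCT15 INPUT and 0.72 for HCT15 RPF. The close pairs still differed beyond counting error and were counted as 2 libraries each. Whether replicates are separate cultures is not stated in the labels, and the spread behind each p-value may therefore be technical. The test also takes the spread of an ID as equal in all groups. The wider HCT15 spread is therefore averaged with narrower ones. Libraries labelled as COPS7B-overexpressing HCT15 stood apart from the parental line. Across 11938 IDs their mean INPUT log2 levels correlated at 0.68 with HCT116 and at 0.60 with HCT15, while the vector line correlated at 0.92 with HCT15. Counts of calls are given below with and without these 4 libraries, as are the IDs named for footprints.

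HCT116 showed footprints on fewer genes than HCT15 did. Its RPF libraries detected 8350 and 8448 IDs, against 11546 and 11121 in HCT15, although its INPUT libraries detected 11720 and 11668, against 10942 and 12311. When every RPF library was thinned to 997844 counts, 8350 and 8442 IDs were detected in HCT116, against 11301 and 10270 in HCT15. HCT116 INPUT averaged at least 50 counts for 6408 IDs, of which 623 had no footprint count in either HCT116 library, which is 9.72% (95% Wilson interval 9.02 to 10.5). In HCT15 this held for 76 of 8300 IDs, or 0.916% (0.732 to 1.14). Reads carried no molecular identifiers, so these intervals and all bounds below account for counting error alone. Intervals and bounds for TE cover only that of footprint counts. Bounds pool the libraries of a line, so a single library can give a smaller fold. A further 582 of the HCT116 IDs had 1 to 5 footprint counts over both libraries, fewer than the 623 with none. At equal depth the shares were 8.56% of 5873 IDs in HCT116 and 0.66% of 6664 in HCT15. The gap between the lines was thus still present at equal depth.

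The share of IDs without a footprint fell as INPUT rose. With INPUT means of 10 to 50 counts it was 41.9% in HCT116, against 10.2% in HCT15. It was 18.9% against 1.96% for 50 to 100 counts and 6.73% against 0.898% for 100 to 250 counts. With 250 to 500 counts it was 2.16% against 0.335%. Above 500 counts 2 of 646 IDs lacked a footprint in HCT116 and 3 of 1339 in HCT15, and the intervals overlapped (0.0849% to 1.12% in HCT116, 0.0762% to 0.657% in HCT15). Most of the 623 IDs had footprints in other lines: 581 in HCT15, 597 in the vector line, 608 with COPS7B, 510 in SW620 and 495 in 841CON. Their median footprint level in HCT15 was 20.0 CPM (counts per 1000000 of the scaled library total of shared IDs), and their median INPUT level was 44.0 CPM in HCT116 and 39.0 CPM in HCT15. Of the 76 IDs without a footprint in HCT15, 10 had one in HCT116 and 48 in the vector line. Whether library preparation or the cells themselves produced the empty IDs of HCT116 was not tested.

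**Figure D1:**
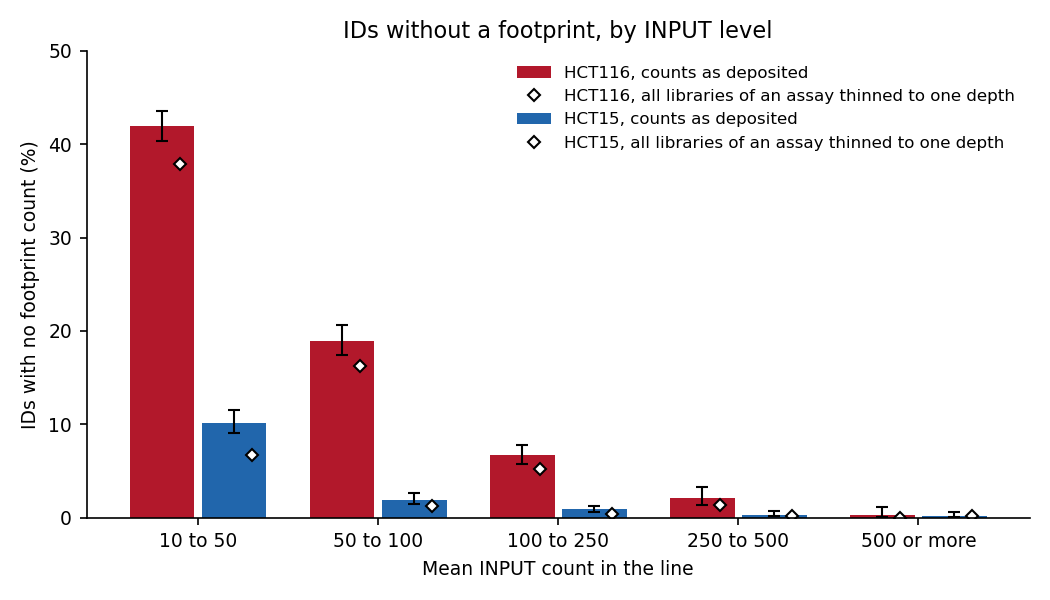
Share of IDs with no footprint count in either RPF library (y axis, percent) by mean INPUT count in the same line (x axis). Red bars are HCT116 and blue bars HCT15 with 95% Wilson intervals, and white diamonds give the shares after thinning. HCT116 stands above HCT15 in every class below 500 counts, from 41.9% against 10.2% in the lowest to 2.16% against 0.335% for 250 to 500 counts.

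Over all IDs tested, RNA levels differed between the lines in both directions in nearly equal number. Of 11938 IDs tested, 1350 were higher in HCT116 (11.3%) and 1364 lower (11.4%), by edgeR's quasi-likelihood test with a Benjamini-Hochberg adjusted p under 0.05. The median log2 change over all IDs tested was -0.01. Called IDs differed by a median of 2.53 on the log2 scale where higher and 2.74 where lower. Of the higher ones 242 had no INPUT count in HCT15, and of the lower ones 302 had none in HCT116. In such bulk libraries, fewer cells with an mRNA and less of it per cell cannot be told apart. The number of calls fell when close pairs were summed into 1 library each, and 544 IDs then passed (275 higher, 269 lower). Summing the HCT116 INPUT pair alone was not tried, so this fall cannot be credited to that pair. Without HCT116 INPUT replicate 1, 1187 passed (651 higher, 536 lower), and without replicate 2, 1114 (624 higher, 490 lower). Without trimmed-mean scaling 1028 were higher and 1764 lower, a split of 36.8% higher against 49.7% with it, and the median change was then -0.26. Without the COPS7B libraries 895 were higher and 985 lower of 11056 tested. The balance did not hold where each line averaged at least 50 INPUT counts. There 538 were higher and 287 lower of 5790, with a median of 0.18. The HCT116 INPUT pair held fewer counts in all, so a count minimum in both lines favours IDs high in HCT116 by construction.

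The extremes of this comparison were RNAs seen in one line and not in the other. ENSG00000101188, the ID with the largest rise among the 790 eligible for naming, had 591 and 607 CPM in HCT116 INPUT, against 0 counts in both HCT15 INPUT libraries. HCT116 exceeded HCT15 at least 1262-fold, taking 3 counts as the floor for HCT15 and the lower 95% counting limit for HCT116 (adjusted p = 1.25e-05, edgeR). Its footprints were at 146 and 132 CPM in HCT116, against 5.62 and 0 CPM in HCT15, so RNA and footprints pointed the same way without overlap. ENSG00000183971 had 247 and 205 CPM in HCT116 INPUT, against 0 counts in both HCT15 libraries, a rise with a counting bound of 455-fold (edgeR adjusted p = 9.79e-06). Its footprints were at 180 and 197 CPM in HCT116, against 1.40 and 0 CPM in HCT15. Neither RNA was above 2.47 CPM on average in the INPUT of the vector line, which is also HCT15. Against that line, where it was counted, the RNA change of ENSG00000183971 was 6.51 on the log2 scale (edgeR adjusted p = 0.000109).

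Among the 910 eligible IDs with lower RNA, the largest fall was that of ENSG00000265972, with 0 counts in both HCT116 INPUT libraries, against 148 and 965 CPM in HCT15. On counts pooled over the libraries, the floor gives a counting bound of 467-fold lower in HCT116 (edgeR adjusted p = 0.00255). HCT15 replicate 1 alone would give a smaller fold, so this bound is no minimum. The HCT15 libraries differed widely, and the call was lost when close pairs were summed (adjusted p = 0.061). Its footprints were nonetheless present in HCT116, at 77.4 and 58.4 CPM, against 714 and 153 CPM in HCT15. That footprint difference did not pass (log2 change -2.67 ± 1.34 SE, edgeR adjusted p = 0.104). ENSG00000276180 also had 0 counts in HCT116 INPUT, against 318 and 199 CPM in HCT15, a fall with a pooled counting bound of 312-fold (edgeR adjusted p = 1.51e-06). It too had footprints in HCT116, at 56.5 and 49.7 CPM, against 858 and 822 CPM in HCT15. Both IDs thus had footprints in HCT116 libraries whose INPUT partner showed no RNA for them.

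IDs of this kind were counted over the whole table. INPUT averaged at least 100 counts in HCT116 and held none in HCT15 for 27 IDs. Their median level was 101 CPM in HCT116, and 24 of the 27 exceeded 5 CPM of footprints in HCT116, against 2 in HCT15. In the vector line 1 of the 27 exceeded 5 CPM in INPUT, 10 did so in SW620 and 15 in the libraries labelled COPS7B. The reverse pattern, no INPUT count in HCT116 and a mean of at least 100 in HCT15, was met by 72 IDs, with a median of 50.2 CPM in HCT15. The vector line had all 72 above 5 CPM in INPUT. SW620 had 37 of them, 841CON 31, and the libraries labelled COPS7B 33. Footprints exceeded 5 CPM for 19 of the 72 in HCT116, against 69 in HCT15. These IDs were selected for their INPUT counts, so the INPUT contrast between the 2 lines is a description. The count rule is not the same level in both lines. The 27 began at 59.9 CPM in HCT116 and the 72 at 25.0 CPM in HCT15, so their numbers are not directly comparable.

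Footprint levels differed for more IDs than RNA levels did, and mostly downwards. Of 11938 IDs, 1850 were higher in HCT116 (15.5%) and 4319 lower (36.2%) by the same test and threshold. The median log2 change was -0.77. Among the 4319 lower IDs 1919 had no footprint count in HCT116. Among the 1850 higher ones 184 had none in HCT15. Among IDs counted in every RPF library compared, 1347 were higher and 1578 lower of 6938, with a median of -0.03. Where each line averaged at least 50 footprint counts the balance turned, with 705 higher and 404 lower of 3738 and a median of 0.24. The HCT116 RPF libraries were the shallower ones, so a count minimum in both lines keeps IDs that are high in HCT116, by construction. Without the COPS7B libraries 1611 were higher and 4001 lower, and with the 8 compared libraries alone 1724 were higher and 3329 lower of 8601, with a median of -0.37. With close pairs summed 1206 were higher and 2773 lower.

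For footprints, 938 higher and 2138 lower IDs were eligible for naming. ENSG00000133124 had 534 and 508 CPM of footprints in HCT116, against 0 counts in both HCT15 libraries, at least 897-fold higher (edgeR adjusted p = 2.72e-07). It had no INPUT count in any HCT116 or HCT15 library, so no TE could be formed. The COPS7B libraries averaged 521 CPM for it in INPUT and 898 CPM in RPF, and without them it did not pass the count filter and could not be tested. The vector line averaged 55.7 CPM of footprints for it, and HCT116 was higher than that line by 3.23 on the log2 scale (edgeR adjusted p = 6.43e-05). ENSG00000105655 had 1015 and 1080 CPM of footprints in HCT116, against 0 and 0.25 CPM in HCT15. On 1 HCT15 count the pooled ratio was 5752, and the 95% counting interval ran from 1031 to 227300 (adjusted p = 5.35e-08, edgeR). Its RNA was at 545 and 576 CPM in HCT116, against 14.9 and 2.33 CPM in HCT15, and its TE was also higher (log2 change 6.20 ± 1.09 SE, adjusted p = 0.00021). The vector line averaged 13.5 CPM of footprints for it. The footprint change was 12.11 on the log2 scale against parental HCT15, 12.08 without the COPS7B libraries and 6.25 against the vector line (edgeR adjusted p = 5.35e-08, 7.77e-07 and 3.98e-07).

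The 2 largest falls in footprints came with falls in RNA. ENSG00000135373 had 0 footprint counts in HCT116, against 291 and 224 CPM in HCT15, a fall with a pooled counting bound of 155-fold (edgeR adjusted p = 1.64e-05). Its RNA was at 15.4 and 16.4 CPM in HCT116, against 196 and 292 CPM in HCT15 (log2 change -3.93 ± 0.81 SE, adjusted p = 0.00225). ENSG00000119042 had 0 footprint counts in HCT116, against 216 and 221 CPM in HCT15, at least 141-fold lower (edgeR adjusted p = 1.74e-07). Its RNA was at 18.7 and 14.4 CPM in HCT116, against 428 and 388 CPM in HCT15 (log2 change -4.63 ± 0.48 SE, adjusted p = 4.07e-06). In both cases the groups did not overlap in either assay, and RNA was still counted in HCT116 where footprints were not. Without the COPS7B libraries the adjusted p was 6.06e-05 for the first and 1.39e-06 for the second (edgeR).

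**Figure D2:**
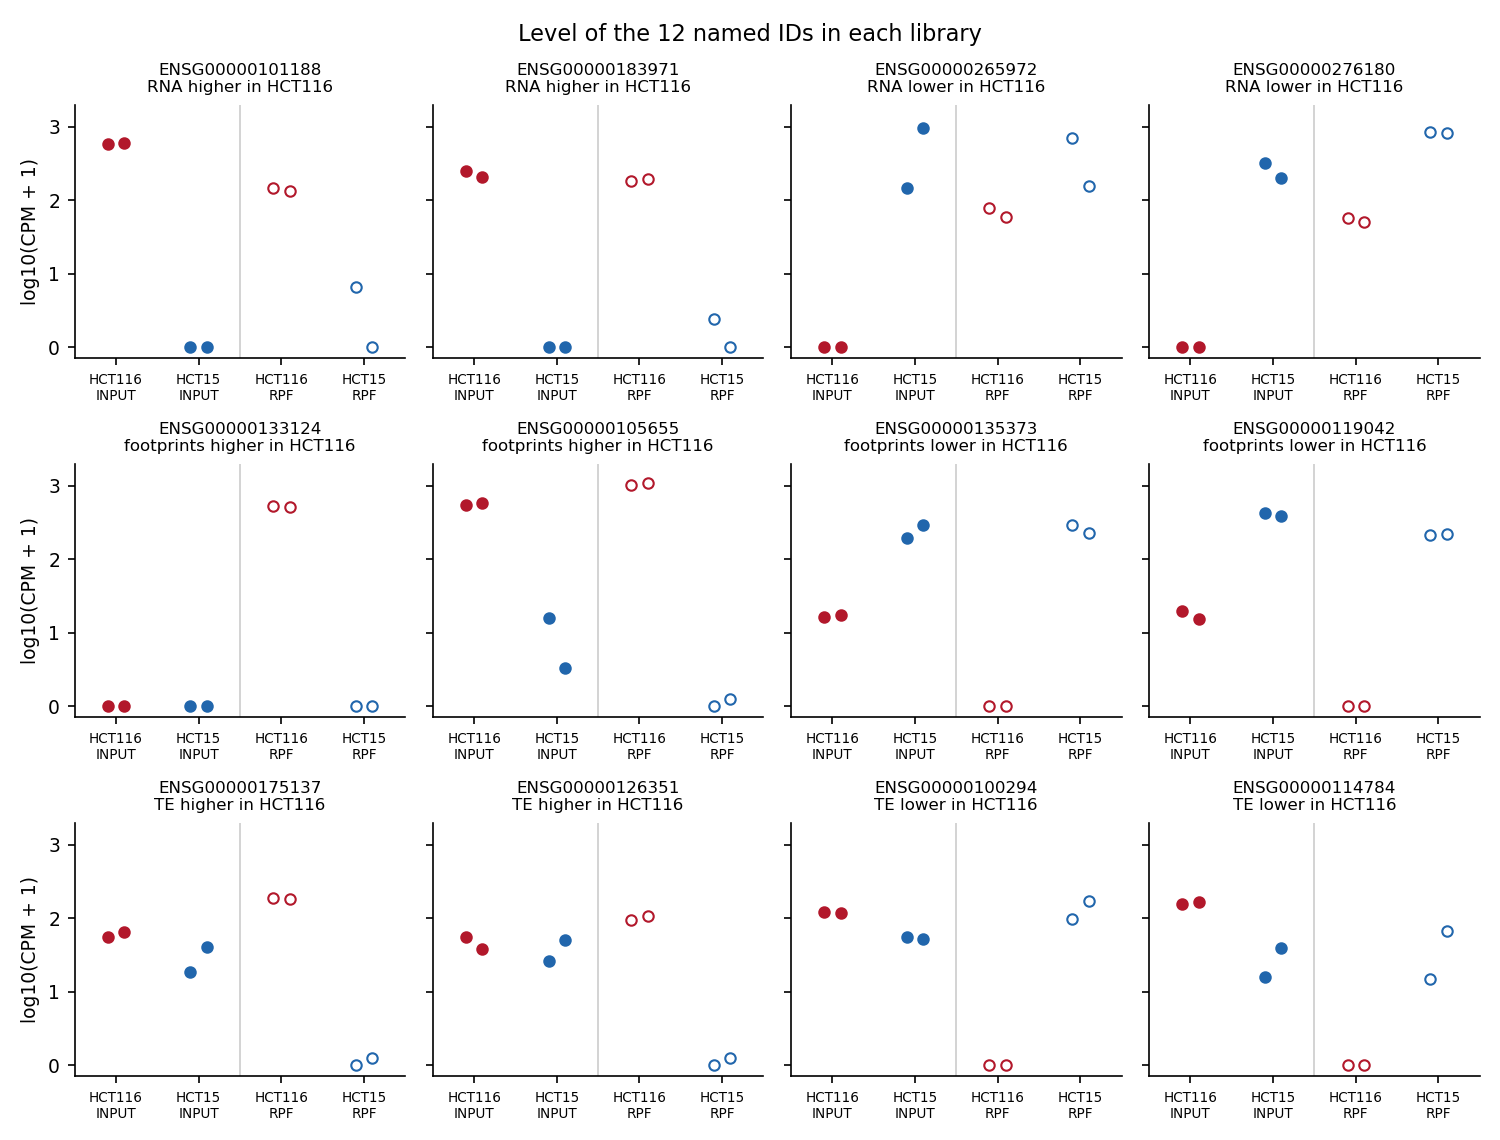
Level of each of the 12 named IDs in every compared library, as log10(CPM + 1) on the y axis. Filled points are INPUT and open points RPF, with HCT116 in red and HCT15 in blue, and 2 points per group. Rows show the IDs named for RNA, footprints and TE, with those higher in HCT116 in the left columns.

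Footprints followed RNA only in part. Of the 1350 IDs with higher RNA in HCT116, 488 also had higher footprints, 201 had lower footprints and 661 did not pass for footprints. Of the 1364 with lower RNA, 790 had lower footprints, 129 higher and 445 did not pass. Both are to be read against the 15.5% higher and 36.2% lower among all IDs. The sign of the fitted footprint change matched that of RNA for 790 of the 1350 and for 1061 of the 1364. Where RNA did not pass, 1233 IDs had higher and 3328 lower footprints. Among IDs counted in all 8 libraries the asymmetry narrowed. Of 763 with higher RNA, 247 had higher and 98 lower footprints, and of 622 with lower RNA, 230 had lower and 101 higher footprints. Across 11938 IDs the 2 changes correlated at 0.32. Within a line, mean RNA and footprint log2 levels correlated at 0.63 in HCT116 and at 0.83 in HCT15. HCT116 footprint levels correlated at 0.60 with footprints of HCT15 and at 0.62 with those of the vector line, nearly as high as with HCT116 RNA. TE in HCT116 thus rests on RNA and footprint levels that matched less well than in HCT15, and why was not tested. These correlations run across IDs that share libraries and depth and are given as a description.

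**Figure D3:**
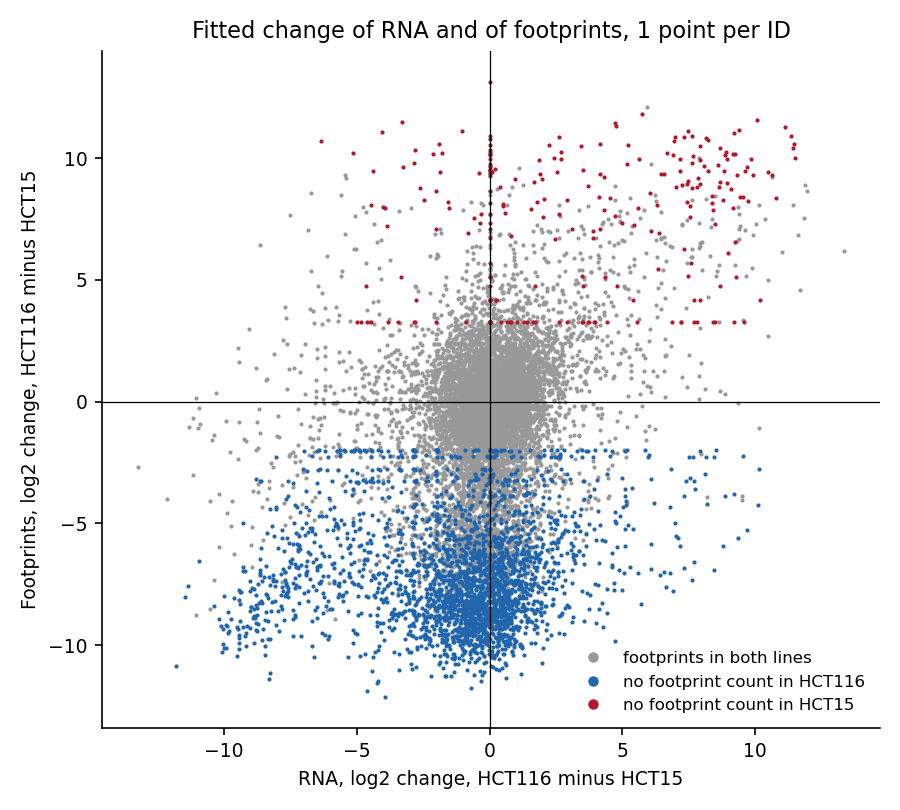
Fitted log2 change of footprints (y axis) against that of RNA (x axis), HCT116 minus HCT15, with 1 point per ID for 11938 IDs. Grey points had footprints in both lines, blue points none in HCT116 and red points none in HCT15. Blue points, which lie below 0 on the y axis by construction, run over nearly the whole range of RNA change and far outnumber red ones. Fitted values of blue and red points are not bounds.

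TE was lower in HCT116 for many more IDs than it was higher. It was tested for the 9025 IDs whose INPUT averaged at least 10 counts in each line. TE was higher for 887 of them (9.83%) and lower for 3162 (35.0%), and the median log2 change was -0.96 (interaction of line and assay in edgeR, adjusted p under 0.05). The INPUT minimum keeps IDs with RNA and no footprint, and leaves out IDs with footprints and little INPUT. This split therefore also depends on the choice of IDs. IDs with no INPUT count and a mean of at least 50 footprint counts numbered 95 in HCT116 and 30 in HCT15. Of the 3162 lower IDs 1225 had no footprint count in HCT116, and of the 887 higher ones 17 had none in HCT15. Among the 6425 IDs counted in all 8 libraries, 814 of these higher and 1337 of these lower calls were found. With p-values of the same fit adjusted over these 6425 IDs alone, 721 had higher and 1209 lower TE, with a median of -0.26. Under a minimum mean of 50 counts in each of the 4 groups, 257 were higher and 326 lower of 3210, with a median of -0.11. Lower calls were the more numerous in each. Both settings leave out IDs with few or no HCT116 footprints by construction, and the second also those with little INPUT, so a smaller excess follows from the choice of IDs. With close pairs summed 332 were higher and 1583 lower of 9398 tested, and without the COPS7B libraries 747 and 2819 of 8915. Without trimmed-mean scaling 1196 were higher and 2665 lower, with a median of -0.56, and in a fit of the 8 compared libraries alone 925 and 2672 of 7875, with a median of -0.59. Scaling was done within each assay, and a shift of translation shared by all mRNAs would not be seen.

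Lower TE was called more often than higher TE at every level of expression. By mean INPUT count over both lines, 37.1% of 1525 IDs between 10 and 50 counts had lower TE and 8.39% higher. Between 50 and 100 counts these shares were 40.4% and 10.2% of 2057 IDs. Between 100 and 250 counts 34.6% of 3103 had lower TE and 342 IDs had higher TE. Between 250 and 500 counts they were 30.7% and 9.98% of 1403, and above 500 counts 27.6% and 7.26% of 937. The median log2 change was -3.30 in the lowest class and -0.61 in the highest. In the highest class 7 IDs had no footprint in HCT116 and 1 had none in HCT15. In that class 68 IDs were called higher and 259 lower. The classes were not recounted without trimmed-mean scaling, where the median over all IDs tested was -0.56 instead of -0.96.

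**Figure D4:**
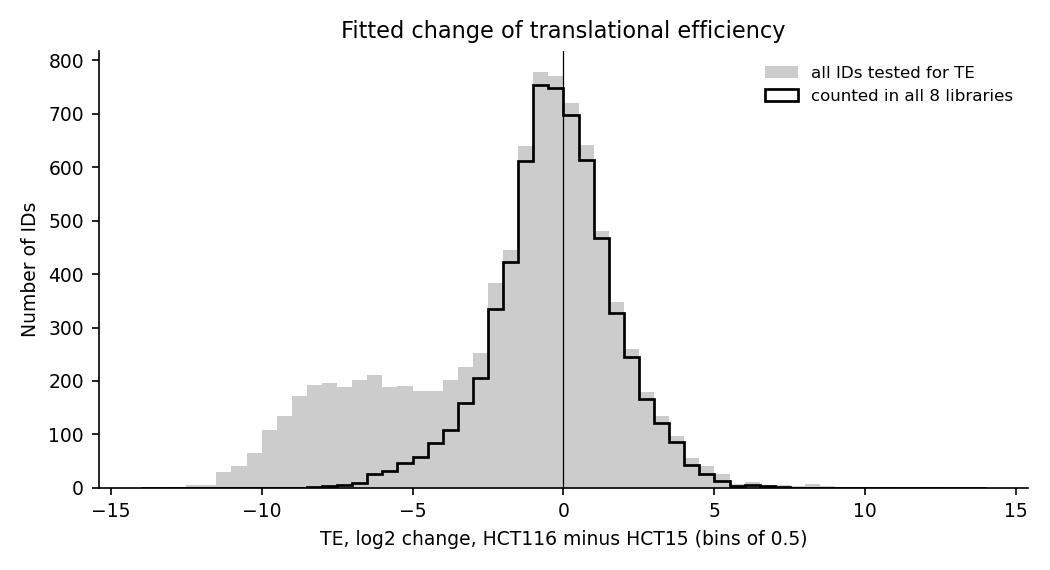
Number of IDs (y axis) by fitted log2 change of TE, HCT116 minus HCT15 (x axis, bins of 0.5). Grey bars hold the 9025 IDs tested and the black outline the 6425 of them counted in all 8 libraries. The grey bars have a second, broad mound at strongly negative change that the outline lacks, and the medians are -0.96 and -0.26.

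The spread of TE between libraries was set against the difference between lines for 2618 IDs with at least 50 counts in every compared library. Ratios of same-numbered libraries differed by a median of 0.17 (log2) between the 2 HCT116 pairs and by 0.68 between the 2 HCT15 pairs. The line averages of 2 ratios each differed by a median of 0.83 in absolute value. Both HCT116 ratios lay above both HCT15 ratios for 730 IDs and below for 1082, and they overlapped for 806. With 2 ratios per line, many IDs would separate without any difference between the lines, so these counts are a description only. Same-numbered INPUT and RPF libraries did not deviate together, so their pairing into ratios is arbitrary. Of the 2618, 240 were called higher and 402 lower, against 9.83% and 35.0% of all 9025 tested.

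RNA and TE calls were compared ID by ID. RNA did not pass for 82.6% of the 9025 IDs tested for TE. It did not pass for 635 of the 887 IDs with higher TE (71.6%), a smaller share than over all IDs, and for 2590 of the 3162 with lower TE (81.9%), a share near it. Higher TE stood beside lower RNA for 231 IDs, and lower TE beside higher RNA for 367. RNA and TE were both higher for 21 IDs and both lower for 205. INPUT enters RNA and TE with opposite signs, so error in it alone would also give opposed calls. Of the 3162 IDs with lower TE, 2807 had lower footprints, and of the 887 with higher TE, 662 had higher footprints.

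For TE 443 higher and 1740 lower IDs were eligible for naming. ENSG00000175137 had 187 and 184 CPM of footprints in HCT116, against 0 and 0.25 CPM in HCT15. Its RNA was at 55.5 and 65.0 CPM in HCT116, against 17.6 and 39.6 CPM in HCT15, and did not pass (adjusted p = 0.0918). Its TE ratio was 483-fold higher on 1 HCT15 footprint count, and its 95% counting interval ran from 86.2 to 19130 (adjusted p = 4.24e-06, edgeR). Intervals given here for TE take the INPUT levels as fixed and cover counting error of footprints only. ENSG00000126351 had 95.2 and 105 CPM of footprints in HCT116, against 0 and 0.25 CPM in HCT15. Its RNA overlapped between the lines, at 54.1 and 36.7 CPM in HCT116 and 25.2 and 49.9 CPM in HCT15 (adjusted p = 0.756). Its TE ratio was 455-fold higher, with an interval of 80.8 to 18070 (edgeR adjusted p = 1.28e-05). The vector line averaged 15.4 and 24.6 CPM of footprints for these 2 IDs, above the 0.12 CPM of parental HCT15 for each. Against that line their log2 TE changes were 2.94 and 2.11, instead of 8.53 and 8.45 (edgeR adjusted p = 0.00207 and 0.0305).

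The largest falls in TE among eligible IDs were of mRNAs counted in HCT116 INPUT but without a footprint count in HCT116 RPF. ENSG00000100294 had 0 footprint counts in HCT116, against 97.6 and 170 CPM in HCT15. Its RNA was at 122 and 118 CPM in HCT116, against 54.3 and 51.8 CPM in HCT15 (adjusted p = 0.0543). With footprints pooled over the libraries of a line, the fall in TE had a counting bound of 216-fold (edgeR adjusted p = 1.61e-06). ENSG00000114784 had 0 footprint counts in HCT116, against 20 and 273 counts in HCT15. Its RNA was at 157 and 167 CPM in HCT116, against 14.6 and 38.7 CPM in HCT15 (log2 change 2.62 ± 0.59 SE, adjusted p = 0.00382). Its fall in TE had a counting bound of 195-fold on pooled footprints (edgeR adjusted p = 1.43e-05). Each bound takes the INPUT levels as fixed and covers counting error of footprints only. The HCT15 libraries varied beyond counting error, and the less covered of them alone would give a smaller fold, so neither bound is a minimum. Both IDs had footprints in the vector line, COPS7B, SW620 and 841CON libraries, with means from 14.5 to 95.2 CPM.

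The most abundant RNAs and footprints were largely shared. Of the 100 IDs with the highest mean INPUT level in each line, 73 were common to both, and of the 100 with the highest footprint level 63 were. Over the 127 IDs in either INPUT list, RNA was higher in HCT116 for 40 and lower for 8, where 11.3% and 11.4% of all IDs were. TE was higher for 16 of them and lower for 27, against 9.83% and 35.0% of all IDs tested, and their median log2 TE change was -0.69. Over the 135 tested IDs of the footprint lists, footprints were higher for 23 and lower for 33, where 15.5% and 36.2% of all IDs were. The 10 leading IDs held 10.2% and 10.6% of INPUT counts in HCT116, against 7.52% and 5.74% in HCT15. In RPF they held 5.85% and 5.89% in HCT116, against 5.56% and 6.21% in HCT15. INPUT counts of HCT116 were thus more concentrated, while those of footprints were alike in this respect.

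HCT15 carrying the vector gave a second set of HCT15 libraries for the comparison. Against it, RNA was higher in HCT116 for 901 IDs and lower for 1110. Footprints were higher for 1724 and lower for 4562, and TE was higher for 766 and lower for 3098 of 8998 tested, with a median log2 change of -0.91. The same HCT116 libraries stand in both comparisons, so the second is no independent check of them.

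**Figure D5:**
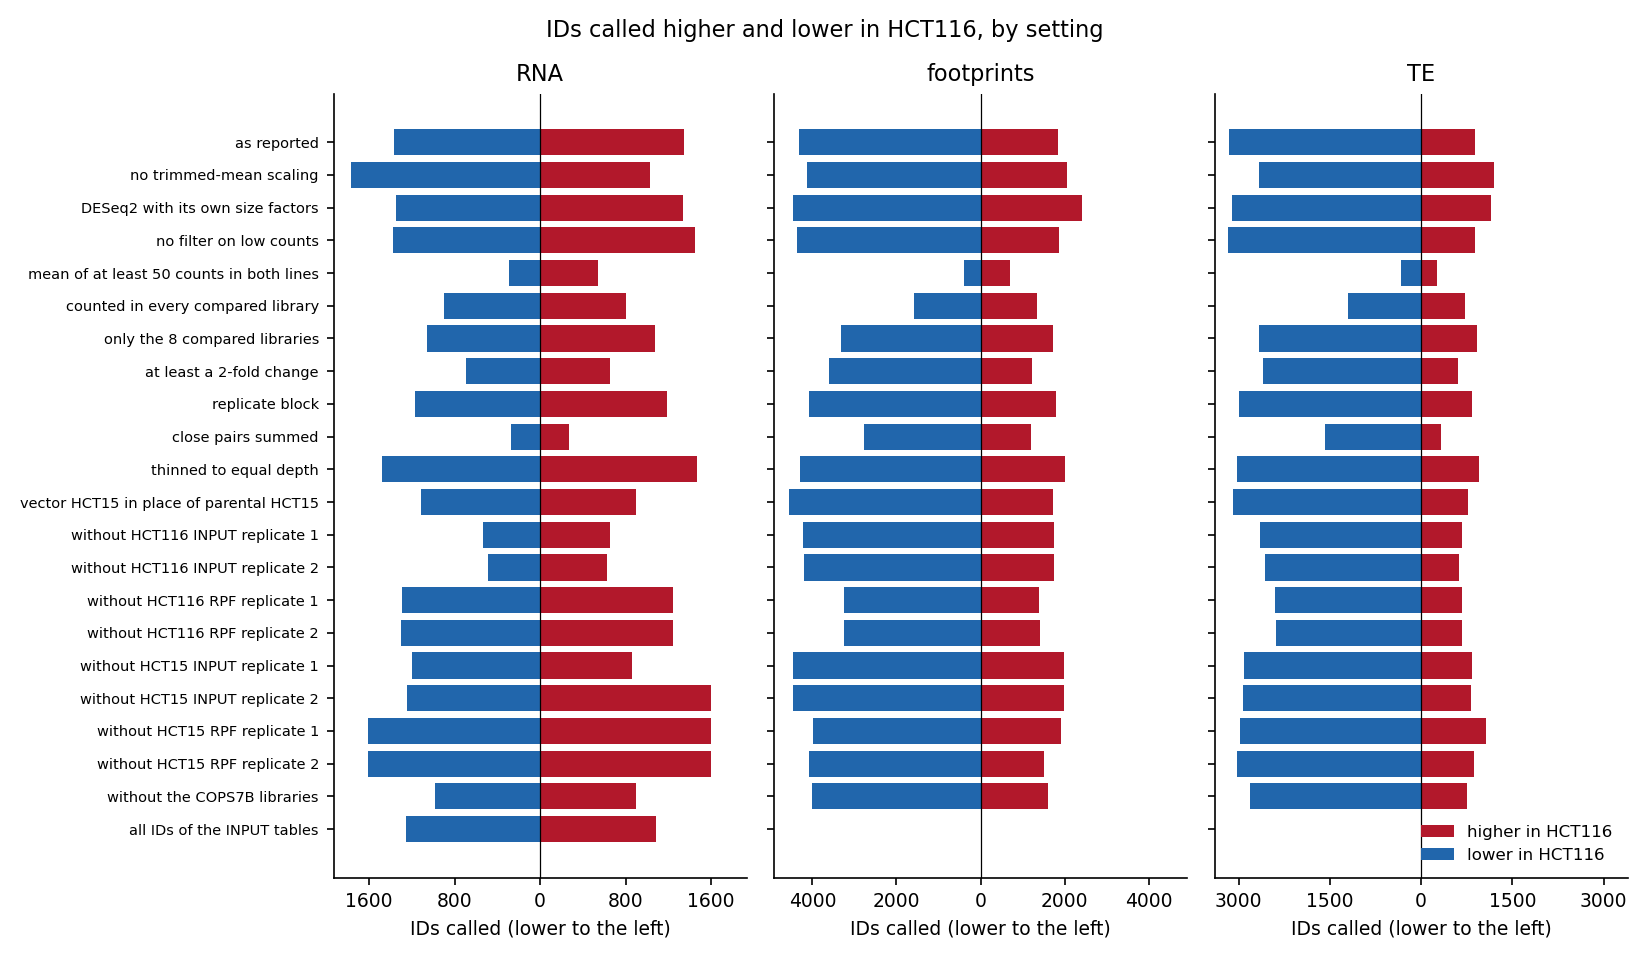
IDs called higher (red, right) and lower (blue, left) in HCT116 for RNA, footprints and TE under each setting tried, with the reported result in the top row. Lower calls outnumber higher ones for TE in every row, and for footprints in every row but that requiring a mean of at least 50 counts (705 higher, 404 lower). The row for all IDs of the INPUT tables has RNA calls only.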

How the data were processed

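Per the deposited tables, each library is a list of raw counts per Ensembl ID, not normalized. Tools listed in the submitters' processing notes are cutadapt 3.5, STAR 2.7.9 and HTSeq 2.0.2, with the build GRCh38. The sources used here do not give the annotation release, the strand setting or the treatment of reads with several matches, so counts of near-identical, overlapping or antisense genes are uncertain. INPUT files list 60623 IDs, and RPF files list 20426 of these, which were used. Summary lines in the vector and COPS7B tables were left out.

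All 24 libraries entered 1 quasi-likelihood model of edgeR 4.0.16 (R 4.3.3), with group means and 12 residual degrees of freedom. DESeq2 1.42.0 was an alternative. IDs passed edgeR's expression filter (minimum count 10) in each assay, leaving 11938. Trimmed-mean scaling was done within each assay. TE is the interaction of line and assay. Tests were two-sided, with a Benjamini-Hochberg adjusted p under 0.05 as the threshold. Shares have Wilson intervals (scipy 1.17.1).

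Named IDs are, per measure and direction, the 2 with the largest log2 change among called IDs whose lines do not overlap. For TE, overlap was judged on ratios of same-numbered libraries, an arbitrary pairing. Named IDs need a mean of 100 counts in the higher line. For TE they need 50 INPUT counts in both lines and 50 footprint counts in the line with higher TE. Planned gene lists and cell type markers are symbols and could not be applied, because no table pairs these IDs with symbols. No sequence is shown for the same reason. Lists, rules and alternatives were chosen with earlier results of these data known. The procedure was also run on simulated counts that gave an ID the same spread in all groups. Such counts cannot check the p-values where HCT15 libraries varied more than those of HCT116.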

Additional observations from a re-analysis of the deposited data

Results flagged for a closer look

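INPUT libraries held counts on 40197 IDs that the RPF libraries do not list, and these entered no comparison above. They drew attention as signal outside the IDs compared. HCT116 INPUT held 614151 and 889219 such counts, which is 27.0% and 28.0% of its totals, against 1446215 (25.1%) in HCT15 INPUT replicate 1 and 399549 of 2350691 in replicate 2, the smallest share of the 4. Over the 12 INPUT libraries of the series the share ran from 11.1% to 46.2%. In an edgeR fit of the INPUT libraries with all IDs, 2174 of these IDs could be tested, and 161 were higher and 96 lower in HCT116 at an adjusted p under 0.05. Among shared IDs in that fit 923 were higher and 1155 lower of 12808.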

How the results depend on the processing

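Against 2714 RNA, 6169 footprint and 4049 TE calls, requiring a mean of at least 50 counts gave 825, 1109 and 583, and IDs counted in every compared library gave 1703, 2925 and 1930. Both settings test fewer IDs by construction. Close pairs summed gave 544, 3979 and 1915, and the cause was not tested. A 2-fold threshold gave 1347 RNA calls. Leaving out 1 library at a time gave 1114 to 3206 RNA, 4633 to 6438 footprint and 3064 to 4046 TE calls, a lone library being assumed to vary like the other groups. Same-numbered libraries of the 2 lines did not deviate together (correlations of 0.002 in INPUT and 0.045 in RPF), so the numbers do not pair them. Same-numbered RPF and INPUT libraries within a line did not either (0.016 in HCT116 and -0.004 in HCT15). With the number as a replicate block 2360, 5883 and 3835 IDs passed. DESeq2, no low-count filter, thinning, the 8 compared libraries alone and no trimmed-mean scaling stayed within 1.5 times of each count. The fits without the COPS7B libraries and with all INPUT IDs, chosen after seeing the data, also did. Of 218 values of the 12 named IDs under the alternatives, 217 kept direction and call, and 1 lost the call. The 12 were picked as the largest changes among called IDs without overlap, so kept calls follow largely from that choice. They say little about the other calls. None of the 12 could be tested under the 50-count rule or among IDs counted in every library. ENSG00000133124 could not be tested without the COPS7B libraries or with the 8 compared libraries alone, where the other 11 kept direction and call. Shallow footprint counts in HCT116 limit the TE folds to bounds where no footprint was counted.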

Other observations

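Some IDs had footprints in a line whose INPUT libraries showed no RNA for them. In HCT116 8463 of the 20426 shared IDs had no INPUT count, and 95 of these had a mean of at least 50 footprint counts. In HCT15 7774 had no INPUT count, and 30 of these had a mean of at least 50 footprint counts. Of the 95 and 30 IDs, 15 and 12 had no INPUT count in any of the 6 cell populations. A mean of at least 100 footprint counts in HCT116 with none in HCT15 was found for 22 IDs. None in HCT116 and a mean of at least 100 in HCT15 was found for 414 IDs. The HCT15 RPF libraries are deeper, so this rule reaches lower levels there. The 22 began at 98.3 CPM in HCT116 and the 414 at 27.7 CPM in HCT15, and their numbers are not directly comparable. Of those 414, 340 exceeded 5 CPM in HCT116 INPUT, and 402 in HCT15 INPUT.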
